A study of Homo sapiens with 9 samples.

Results

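The 55 genes described here encode proteins of the kinetochore, the mitotic spindle and the control of mitosis, and they were taken by symbol from a written list that left out the kinesins except *CENPE*. That list, and the lists used for comparison, were chosen with earlier results of these data known. All 55 were found among the 19918 gene symbols counted in RNA-seq libraries of VCaP cells, an established prostate cancer line. In the si025 and si033 groups, the lncRNA *IGF1R-AS1*, read from the strand opposite *IGF1R*, was targeted in its exon 1 with 100 pmol of 1 of 2 siRNAs, and the cells were harvested 72 h later. The control cells carry the label WT, and the labels do not name the siRNA they received. Each group held 3 libraries, made from 1.3 µg of total RNA each. The same 3 control libraries entered both knockdown comparisons, so these are not independent of each other. The study describes the knockdowns as biological replicates, while the labels do not say whether libraries of a group came from separate cultures, so *p* values measure only the spread between these libraries. *IGF1R-AS1* itself was not analysed here, and how far it was knocked down is not known from these counts.

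A cell enters mitosis when cyclin B and its kinase CDK1 become active. Chromosomes are then condensed and attached through kinetochores, protein assemblies built on centromeric chromatin, to spindle microtubules. The spindle checkpoint holds the anaphase-promoting complex (APC/C) inactive until every chromosome is attached, after which securin and the cyclins are degraded, the sister chromatids part and the cell divides. Most of these genes are transcribed mainly in the late part of the cell cycle, when the MuvB complex with MYBL2 and FOXM1 acts at a promoter element called the cell cycle homology region (CHR), and they are widely used as markers of proliferation in tumours. In RNA from whole cultures, fewer cells in mitosis and less RNA per dividing cell cannot be told apart.

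Because many of these genes share promoter elements, the promoters of 7 of them are shown. The window runs from 250 bases before to 50 bases after the transcription start given by RefSeq on GRCh38.p14, 5′ to 3′ on the strand of the gene. Capitals mark the CHR core word, TTTGAA or TTCGAA, and the CCAAT box, which reads ATTGG where it lies on the opposite strand. Where TTTGAATTGG is printed, the 2 words overlap. The first 6 were chosen among the genes whose window holds the CHR word. From each functional group the one that fell furthest with si025 was taken, and the 6 of these that fell furthest are shown. *AURKB* fell furthest with si025 among the genes whose windows lack the word.
CDCA8, chr1:37692266-37692565, + strand: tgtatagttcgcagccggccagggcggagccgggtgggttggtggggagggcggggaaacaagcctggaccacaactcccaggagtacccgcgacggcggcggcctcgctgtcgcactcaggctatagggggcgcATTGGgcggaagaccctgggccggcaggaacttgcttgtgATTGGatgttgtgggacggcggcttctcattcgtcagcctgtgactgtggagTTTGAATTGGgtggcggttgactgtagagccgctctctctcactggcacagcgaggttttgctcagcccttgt
CENPF, chr1:214602945-214603244, + strand: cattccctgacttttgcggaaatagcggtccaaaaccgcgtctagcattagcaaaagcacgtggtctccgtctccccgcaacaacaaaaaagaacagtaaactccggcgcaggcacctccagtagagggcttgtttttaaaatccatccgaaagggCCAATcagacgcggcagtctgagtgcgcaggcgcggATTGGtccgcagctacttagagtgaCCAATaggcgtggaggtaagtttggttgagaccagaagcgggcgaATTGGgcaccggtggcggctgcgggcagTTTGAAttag
MKI67, chr10:128126374-128126673, - strand: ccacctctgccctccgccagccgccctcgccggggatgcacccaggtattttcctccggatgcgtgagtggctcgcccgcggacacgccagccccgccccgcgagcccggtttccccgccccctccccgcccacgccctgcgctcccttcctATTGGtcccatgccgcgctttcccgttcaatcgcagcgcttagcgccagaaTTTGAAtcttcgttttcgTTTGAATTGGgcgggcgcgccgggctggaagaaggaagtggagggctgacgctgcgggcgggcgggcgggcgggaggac
BUB1B, chr15:40160819-40161118, + strand: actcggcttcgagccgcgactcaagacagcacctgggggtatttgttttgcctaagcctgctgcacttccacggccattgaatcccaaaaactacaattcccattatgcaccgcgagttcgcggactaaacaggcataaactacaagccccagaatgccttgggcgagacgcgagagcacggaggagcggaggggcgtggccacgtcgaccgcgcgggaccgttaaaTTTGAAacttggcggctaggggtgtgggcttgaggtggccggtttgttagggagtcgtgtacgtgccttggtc
HMMR, chr5:163460382-163460681, + strand: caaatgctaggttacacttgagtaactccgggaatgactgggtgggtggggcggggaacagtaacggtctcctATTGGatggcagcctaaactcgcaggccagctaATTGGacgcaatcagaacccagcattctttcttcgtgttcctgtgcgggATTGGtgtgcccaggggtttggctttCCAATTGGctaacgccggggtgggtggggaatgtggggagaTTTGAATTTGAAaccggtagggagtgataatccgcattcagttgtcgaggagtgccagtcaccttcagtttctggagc
CCNB2, chr15:59104896-59105195, + strand: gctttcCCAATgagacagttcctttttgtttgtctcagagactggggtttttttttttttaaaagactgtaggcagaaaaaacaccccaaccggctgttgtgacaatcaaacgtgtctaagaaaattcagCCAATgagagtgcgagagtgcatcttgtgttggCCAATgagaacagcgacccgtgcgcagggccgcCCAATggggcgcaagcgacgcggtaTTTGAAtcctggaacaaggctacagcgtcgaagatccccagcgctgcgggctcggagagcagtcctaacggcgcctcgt
AURKB, chr17:8210176-8210475, - strand: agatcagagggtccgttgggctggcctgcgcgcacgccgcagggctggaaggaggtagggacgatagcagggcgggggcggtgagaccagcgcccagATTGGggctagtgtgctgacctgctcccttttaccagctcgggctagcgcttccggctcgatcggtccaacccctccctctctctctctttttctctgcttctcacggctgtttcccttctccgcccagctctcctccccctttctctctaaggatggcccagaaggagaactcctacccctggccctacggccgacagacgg

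The CHR word began 23 bases before the start in both *CDCA8* and *BUB1B*, and 29 bases before it in *CCNB2*. *MKI67* and *HMMR* each held the word at 2 positions, 47 and 29 bases before the start in *MKI67* and 28 and 22 bases before it in *HMMR*. In *CENPF* the word lay downstream, beginning at base 41 of the transcript, with 4 CCAAT boxes around the start. *BUB1B* had no CCAAT box in the window. *AURKB* held a CCAAT box 153 bases before the start of the window shown and no CHR word in either of its 2 windows. The *AURKB* window shown lies inside the counted gene, which extends upstream to base 8210768 of chromosome 17.

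RefSeq windows were at hand for 44 of the 55 genes. *AURKA*, *BIRC5*, *TPX2*, *BUB3*, *TTK*, *UBE2C*, *CENPH*, *CENPM*, *MIS18A*, *RACGAP1* and *FOXM1* had no entry. TTTGAA, searched on both strands, occurred in 30 of the 44 (68.2%), against 13.4% of 9947 genes tested for expression and 18.2% of all 27303 genes with a window. CCAAT was found in 32 of the 44 (72.7%), against 43.2% of tested genes. A CHR word together with CCAAT was found in 24 (54.5%), against 6.39% of tested genes. The E-box CACGTG, bound by MYC among others, was held by 6 mitotic genes (13.6%), against 12.4% of tested genes, and the E2F word TTCCCGC by 4 (9.09%), against 12.8%. In the 60 bases before the start, a stretch chosen after the shares were known, TTTGAA began in 17 of the 44 (38.6%), against 2.61% of tested genes. These matches describe letters in a window and do not show that a factor was bound.

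**Figure D1:**
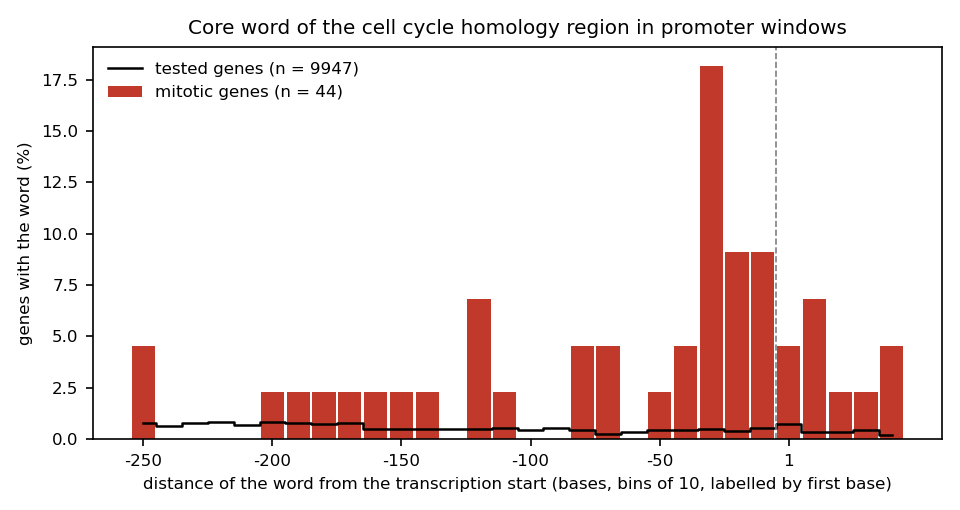
Percent of genes whose promoter window holds the CHR core word TTTGAA (y axis) by distance from the transcription start in bins of 10 bases (x axis). Values are for 44 mitotic genes (bars) and 9947 tested genes (line), and TTCGAA is not included. In the mitotic genes the word lay most often in the bins just before the start, marked by the dashed line, with 17 of the 44 genes in the last 60 bases before it.

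Library totals ranged from 11649811 to 28492259 counted read pairs, and 12810 genes were expressed highly enough to be tested. Levels are given as CPM, TMM-scaled counts relative to a common library size, and changes as log2 fold changes with their standard error (SE) from the quasi-likelihood test of edgeR. A gene is referred to as called when its *p* value, adjusted over all tested genes by the Benjamini-Hochberg method, was under 0.05. The label VCaP was checked against markers. *KLK2*, a prostate kallikrein, lay between 1524 and 3688 CPM and *ERG* between 270.9 and 452 CPM, while *KRT5*, *CD3E* and *CDH5* were at 0 in all 9 libraries. The 10 luminal prostate markers used were detected, and their summed level moved with the groups, at 5010 to 5097 CPM in control, 7682 to 7983 CPM with si025 and 4373 to 4583 CPM with si033. The 4 fibroblast markers summed to 16.4 to 18.9 CPM in control, 36.4 to 43.8 CPM with si025 and 8.89 to 11.2 CPM with si033, nearly all from *LUM*. The 3 basal, 3 endothelial and 3 immune markers each summed to less than 5 CPM in every library. The part of these shifts in the results was not tested.

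Mitotic transcripts were lower with both siRNAs and lower with si025 than with si033. Their summed level was 10140, 10440 and 10570 CPM in the control libraries, 6629, 6467 and 6653 CPM with si025, and 7513, 7793 and 7764 CPM with si033. The 3 groups did not overlap. Of 54 genes tested, 53 were called with si025, all of them lower, whereas 61.7% of all tested genes were called and 28.8% were called lower. With si033, 52 were called and 51 of these were lower, whereas 54.8% of all tested genes were called and 27.8% were called lower. The median log2 fold change over the 54 genes was -0.69 with si025, with quartiles of -0.87 and -0.57, and -0.43 with si033, with quartiles of -0.51 and -0.31. Over all tested genes the medians were 0.02 and 0.00. *CDCA8*, *CENPF* and *AURKB* were below 50% of their control mean with si025, and no tested gene of the group was below 50% with si033.

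**Figure D2:**
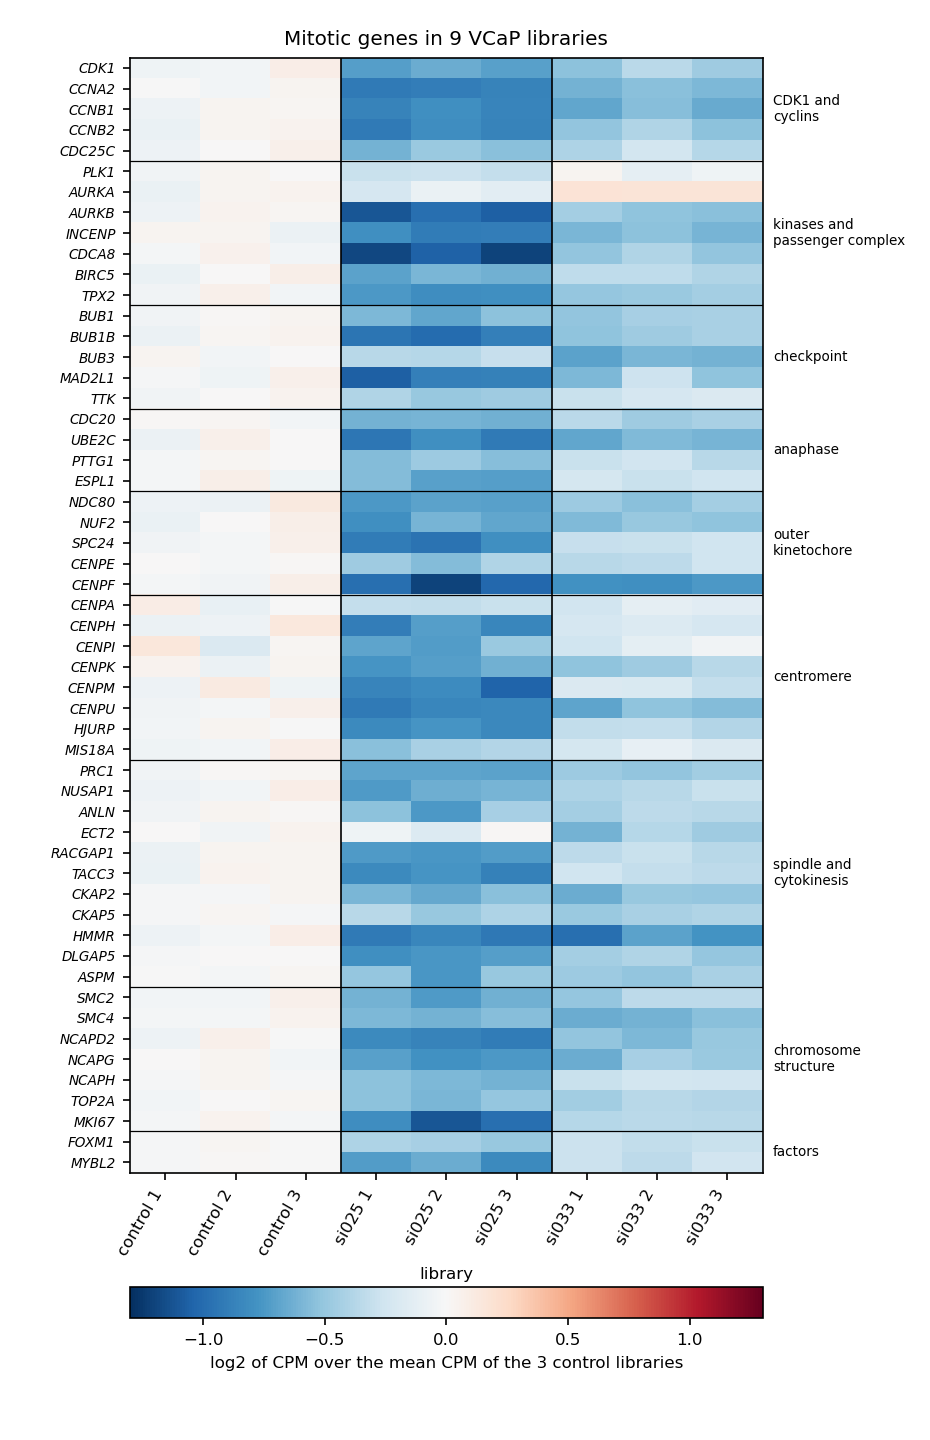
Log2 ratio of each library to the control mean (colour) for the 54 tested mitotic genes (rows, by functional group) in the 9 libraries (columns). In most rows the si025 columns are the lowest and the si033 columns lie between si025 and control. By their means, *ECT2*, *BUB3*, *SMC4* and *CKAP5* were lowest with si033, and *AURKA* was highest with si033.

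CDK1, its cyclin partners and the phosphatase CDC25C, which removes the inhibitory phosphates from CDK1, were all called lower with each siRNA. *CCNA2*, which encodes the cyclin of S phase and early mitosis, was at 126, 124 and 130.0 CPM in control, 67.1, 68.0 and 69.5 CPM with si025, and 82.7, 87.1 and 84.8 CPM with si033. These groups were apart, with si025 lowest. Its log2 fold change was -0.89 ± 0.05 (SE, adjusted *p* = 1.73e-13) with si025 and -0.58 ± 0.05 (adjusted *p* = 3.17e-10) with si033. *CCNB1*, the main mitotic cyclin, was at 311, 335 and 332 CPM in control, 178, 188 and 180.3 CPM with si025, and 204, 222 and 206 CPM with si033. No library of one group reached another. *CCNB1* fell by 0.84 and 0.63 on the log2 scale, the lowest value with si033 among these 5 genes. *CCNB2*, whose promoter is shown above, went from 105, 115 and 115 CPM in control to 59.1, 63.9 and 61.0 CPM with si025 and 78.3, 85.1 and 77.0 CPM with si033. The difference between the siRNAs was -0.38 ± 0.05 (adjusted *p* = 2.79e-06), the widest of the 5. *CDC25C* moved least, from 64.8, 68.1 and 71.3 CPM in control to 44.4, 48.8 and 46.7 CPM with si025 and 51.6, 57.5 and 52.8 CPM with si033, which left the groups apart. On the log2 scale it changed by -0.55 ± 0.06 with si025 (adjusted *p* = 2.06e-08) and by -0.34 ± 0.06 with si033 (adjusted *p* = 2.2e-05). *CDK1* itself was at 61.9% of its control mean with si025 and 73.4% with si033.

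Among the mitotic kinases and the chromosomal passenger complex, the complex fell while *PLK1* and *AURKA* moved less. *CDCA8*, which encodes borealin, the subunit that brings the complex to centromeres, fell furthest of the tested mitotic genes with si025. It was at 104, 111 and 104 CPM in control, 46.7, 51.2 and 46.0 CPM with si025, and 74.5, 80.9 and 74.6 CPM with si033. The groups did not overlap. Its log2 fold change was -1.14 ± 0.06 (adjusted *p* = 4.46e-14) with si025 and -0.47 ± 0.05 (adjusted *p* = 9.97e-08) with si033. *INCENP*, the scaffold of the complex, went from 115, 114 and 106 CPM in control to 64.4, 59.7 and 60.01 CPM with si025 and 74.1, 77.4 and 73.5 CPM with si033, with no overlap. The log2 fold changes of *INCENP* were -0.87 ± 0.05 and -0.58 ± 0.05, the latter the lowest of these 7 genes with si033. *AURKB*, the kinase of the complex, was at 48.2% of control with si025 and 70.5% with si033, and *BIRC5*, which encodes survivin, another subunit, at 64.3% and 78.3%. *TPX2*, which activates Aurora A on spindle microtubules, was at 58.2% and 72.0%.

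*AURKA* and *PLK1* did not follow this pattern. *AURKA* (chr20:56369389-56392337, minus strand, hg38) encodes Aurora A, which matures centrosomes and builds the spindle. Its level was 115.4, 125 and 126 CPM in control, 105, 115.3 and 111 CPM with si025, and 138, 137 and 137 CPM with si033. The si033 libraries were above every control library, and the highest si025 library was only just below the lowest of them. *AURKA* was called lower with si025 (-0.14 ± 0.05, adjusted *p* = 0.0129) and higher with si033 (0.16 ± 0.05, adjusted *p* = 0.00609). Between si025 and si033 it differed by -0.31 ± 0.05 (adjusted *p* = 7.75e-06). The call with si025 was lost without si025 replicate 1 (-0.11, adjusted *p* = 0.0637), without control replicate 3 (-0.12, adjusted *p* = 0.0689) and when libraries were scaled by their totals alone (-0.09, adjusted *p* = 0.0898). *AURKA* has processed pseudogenes with near-identical sequence, so its counts are less certain. *PLK1* (chr16:23678772-23690367, plus strand), the kinase that drives mitotic entry and centrosome maturation, was at 86.5, 91.8 and 89.96 CPM in control, 73.0, 73.9 and 72.3 CPM with si025, and 91.7, 82.4 and 86.2 CPM with si033. The si033 and control libraries overlapped, and the si025 libraries were below both. With si025 the log2 fold change of *PLK1* was -0.29 ± 0.05 (adjusted *p* = 2.45e-05). With si033 it was -0.05, with a 95% interval from -0.15 to 0.06, and it was not called (adjusted *p* = 0.455).

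**Figure D3:**
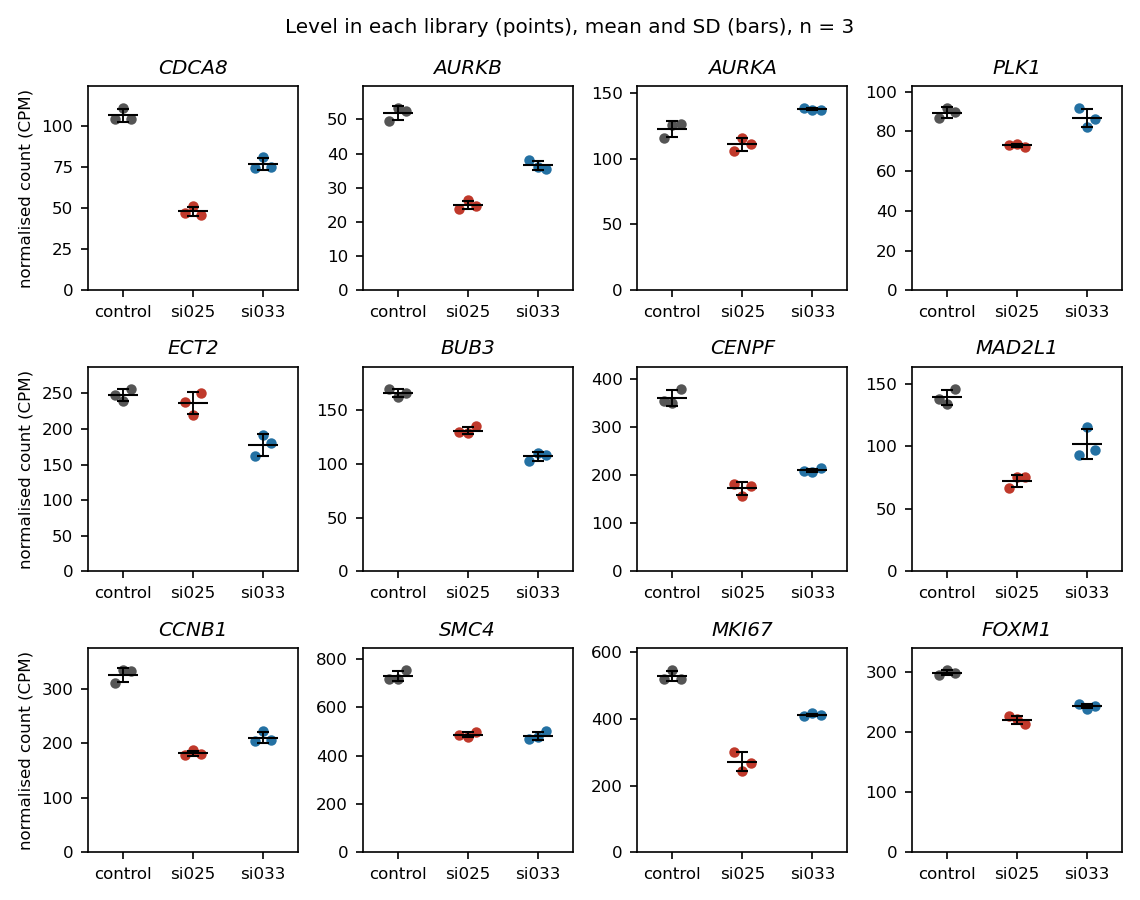
Normalised count (CPM, y axes from 0) of 12 mitotic genes in each library (points) of the control, si025 and si033 groups (x axis), with the mean and SD of 3 libraries. *CDCA8*, *CENPF* and *AURKB* fell furthest with si025, *AURKA* was above control with si033 alone, *PLK1* was lower with si025 alone, and *ECT2* and *BUB3* were lowest with si033.

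All 5 spindle checkpoint genes were called lower with each siRNA. *BUB1B*, which encodes BUBR1, a subunit of the mitotic checkpoint complex that inhibits the APC/C, was at 159, 170.3 and 174 CPM in control, 87.1, 84.2 and 90.7 CPM with si025, and 117, 121 and 125 CPM with si033. The groups were apart. *BUB1B* changed by -0.94 ± 0.05 on the log2 scale with si025 (adjusted *p* = 1.63e-13) and by -0.47 ± 0.05 (adjusted *p* = 2.27e-08). Of its exon bases, 4.6% were shared with the readthrough gene *BUB1B-PAK6*, and read pairs there could not be assigned. *MAD2L1*, which encodes MAD2, the protein that captures CDC20 at unattached kinetochores, was at 138, 134 and 146 CPM in control, 66.8, 75.03 and 75.5 CPM with si025, and 92.8, 115 and 97.0 CPM with si033. Its si033 libraries were the more spread, yet all lay between the other groups. The difference between the siRNAs was -0.48 ± 0.07 (adjusted *p* = 1.42e-06). *TTK*, which encodes MPS1, the kinase that starts checkpoint signalling, went from 104, 108 and 112 CPM in control to 82.6, 76.7 and 78.2 CPM with si025 and 88.5, 93.0 and 95.1 CPM with si033. These did not overlap either, and the log2 fold change of *TTK* with si033, -0.23 ± 0.05 (adjusted *p* = 0.000441), was the smallest of the 5. *BUB1*, the kinase that docks checkpoint proteins at kinetochores, was at 66.0% and 72.9% of control.

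*BUB3* reversed the usual order of the siRNAs. BUB3 binds BUB1 and BUBR1 and brings them to the kinetochore. Its transcript was at 169.6, 162 and 166 CPM in control, 129, 128 and 135 CPM with si025, and 102, 110.1 and 108 CPM with si033. The si033 libraries were the lowest and the groups did not overlap. The log2 fold change was -0.34 ± 0.05 (adjusted *p* = 8.63e-07) with si025 and -0.63 ± 0.05 (adjusted *p* = 7.39e-11) with si033, and the difference between them was 0.29 ± 0.05 (adjusted *p* = 1.04e-05).

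The 4 genes of the APC/C and the metaphase-to-anaphase switch were called lower with each siRNA. *UBE2C*, the ubiquitin-conjugating enzyme of the APC/C, was at 153, 169 and 161 CPM in control, 84.1, 93.0 and 85.3 CPM with si025, and 101, 108 and 106 CPM with si033. The groups were apart, with a log2 fold change of -0.88 ± 0.05 with si025 (adjusted *p* = 1.08e-12) and of -0.62 ± 0.05 with si033 (adjusted *p* = 5.44e-10). *CDC20*, the activator of the APC/C that the checkpoint inhibits, was at 158, 159 and 152 CPM in control, 102, 103 and 101 CPM with si025, and 123, 113 and 117 CPM with si033. Its spread within groups was narrow, and the siRNAs differed by -0.21 ± 0.05 (adjusted *p* = 0.000507), the least of the 4. *ESPL1*, which encodes separase, the protease that cuts cohesin, was at 152, 163 and 149 CPM in control, 104, 94.8 and 94.1 CPM with si025, and 132, 126 and 129 CPM with si033. It showed the widest difference between the siRNAs of the 4, -0.41 ± 0.05 (adjusted *p* = 3.78e-07). *PTTG1*, which encodes securin, the inhibitor of separase, went from 73.2, 75.8 and 74.7 CPM in control to 50.6, 53.6 and 50.9 CPM with si025 and 61.0, 62.6 and 58.0 CPM with si033, again without overlap. The log2 fold changes of *PTTG1* were -0.53 ± 0.05 and -0.31 ± 0.05, and its near-identical intronless copies make the counts less certain.

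In the outer kinetochore, which binds microtubules, 5 of 6 genes could be tested and all 5 were called lower with each siRNA. *CENPF*, a large protein of the fibrous corona whose promoter is shown above, was at 354, 349.9 and 379.7 CPM in control, 183, 157 and 178 CPM with si025, and 209, 208 and 215 CPM with si033. The lowest si033 library lay above the highest si025 library and both groups were far below control. The log2 fold change of *CENPF* was -1.07 ± 0.05 with si025 (adjusted *p* = 4.57e-14) and -0.78 ± 0.05 (adjusted *p* = 1.15e-11). *CENPE*, the kinetochore motor that moves chromosomes to the metaphase plate, changed less. It was at 149, 145 and 150.3 CPM in control, 107, 100.5 and 113 CPM with si025, and 116, 117 and 124 CPM with si033. The groups did not overlap, and *CENPE* changed by -0.47 ± 0.05 with si025 (adjusted *p* = 1.9e-08) and by -0.32 ± 0.05 with si033 (adjusted *p* = 9.97e-06) on the log2 scale. The NDC80 complex, the main microtubule anchor, is built of NDC80 and NUF2 on one arm and SPC24 and SPC25 on the other. *NDC80* was at 60.8% of control with si025 and 71.5% with si033, and *NUF2* at 62.0% and 69.4%. *SPC24* was at 31.0, 31.4 and 33.4 CPM in control, 17.0, 16.4 and 18.4 CPM with si025, and 25.9, 26.2 and 26.8 CPM with si033. Its si033 libraries were nearer to control than to si025, and the siRNAs differed by -0.61 ± 0.07 (adjusted *p* = 6.93e-08).

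*SPC25* was the only gene of the 55 that was not tested. Its counts were 1, 0 and 1 in control, 10, 0 and 0 with si025, and 0, 3 and 1 with si033. All but 1 library were at or below 3 counts, which is 0.105 to 0.258 CPM depending on the library, so no fold change is given. Its partner *SPC24* was read at levels over 16 CPM in each library. Outside the 55, *SKA1* and *KIFC1* were also near absent, at control means of 0.0 and 0.20 CPM. *SKA2* and *SKA3* were at control means of 213.9 and 63.9 CPM. The reason for the near absence of *SPC25*, *SKA1* and *KIFC1* was not tested.

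The centromere genes comprise CENP-A, the histone H3 variant that marks centromeres, the CENP proteins that bind to it, and the factors that load it. All 8 were called lower with si025 and 7 were called lower with si033, where this set had a median log2 fold change of -0.23 against -0.75 with si025. *CENPM* was at 32.98, 37.5 and 33.4 CPM in control, 19.1, 19.7 and 16.8 CPM with si025, and 30.4, 30.2 and 28.0 CPM with si033. The si033 libraries sat just under control. Its log2 fold change was -0.91 ± 0.07 (adjusted *p* = 2.83e-10) with si025 and -0.24 ± 0.07 (adjusted *p* = 0.00631) with si033, and the difference of -0.67 ± 0.07 (adjusted *p* = 5.79e-08) was, with that of *CDCA8*, the widest of all 54 genes. Without si033 replicate 3 or without control replicate 2 the call with si033 was lost (adjusted *p* = 0.0633 and 0.061). *CENPI* was at 29.5, 23.5 and 27.1 CPM in control, 16.6, 16.1 and 19.1 CPM with si025, and 22.2, 24.5 and 25.8 CPM with si033. The si033 libraries overlapped with control, while the si025 libraries were lower than all others. *CENPI* was called with si025 (-0.61 ± 0.09, adjusted *p* = 1.51e-06) and not with si033 (-0.12, 95% interval from -0.29 to 0.05, adjusted *p* = 0.215).

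*CENPA* itself moved little. It was at 38.5, 33.8 and 35.9 CPM in control, 29.0, 29.0 and 29.4 CPM with si025, and 30.4, 33.3 and 32.5 CPM with si033. The highest si033 library was only just below the lowest control library. Its log2 fold change was -0.30 ± 0.06 (adjusted *p* = 0.000198) with si025 and -0.16 ± 0.06 (adjusted *p* = 0.0317) with si033. The call with si033 was lost in 7 of 17 alternative analyses, among them those without si033 replicate 1 (adjusted *p* = 0.129) or replicate 3 (0.0629) and without control replicate 1 (0.172) or replicate 3 (0.0838). *HJURP*, the chaperone that deposits CENP-A, was at 57.1% of control with si025 and 79.2% with si033, and *MIS18A*, which primes centromeres for loading, at 73.5% and 88.6%. *CENPU* fell most of the 8 with si033, from 143, 144 and 153 CPM in control to 91.3, 102 and 99.3 CPM, and lay at 77.8, 81.8 and 82.1 CPM with si025. Its groups did not overlap, and the log2 fold change with si033 was -0.59 ± 0.05 (adjusted *p* = 9.79e-10). *CENPH* and *CENPK* were at 56.7% and 61.5% of control with si025 and at 86.8% and 73.3% with si033. The calls of *CENPH* and *MIS18A* with si033 were lost without control replicate 3 (adjusted *p* = 0.0951 and 0.117).

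Of the 11 spindle and cytokinesis genes, 10 were called lower with si025 and all 11 with si033. *HMMR*, which encodes a spindle pole protein also known as the hyaluronan receptor RHAMM, fell furthest of the tested mitotic genes with si033. It was at 67.5, 69.3 and 75.3 CPM in control, 37.3, 39.3 and 37.0 CPM with si025, and 35.9, 43.5 and 41.2 CPM with si033. Both knockdown groups lay far below control and overlapped each other. *HMMR* changed by -0.91 ± 0.06 on the log2 scale with si025 (adjusted *p* = 2.35e-11) and by -0.82 ± 0.06 with si033 (adjusted *p* = 2.17e-10), and the difference was -0.09 with a 95% interval from -0.23 to 0.05 (adjusted *p* = 0.247). Without si033 replicate 1 the difference was -0.16 and was called (adjusted *p* = 0.0339). *TACC3*, which with CKAP5 stabilises the kinetochore fibres, was further apart between the siRNAs. It was at 161, 177 and 175 CPM in control, 95.96, 100.3 and 93.2 CPM with si025, and 142, 138 and 135 CPM with si033. Its si033 libraries were nearer to control, with a difference between the siRNAs of -0.52 ± 0.05 (adjusted *p* = 3.95e-09).

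*ECT2* (chr3:172750682-172829273, plus strand) was the only tested gene of the 54 that was not called with si025. ECT2 is the exchange factor that activates RhoA at the division plane, where it is held by the centralspindlin subunit RACGAP1. Its transcript was at 248, 239.7 and 256 CPM in control, 238, 219.7 and 251 CPM with si025, and 162, 192 and 179.9 CPM with si033. The si025 libraries overlapped with control and all 3 si033 libraries were below them. With si025 the log2 fold change was -0.07, with a 95% interval from -0.19 to 0.05 (adjusted *p* = 0.284), and with si033 it was -0.48 ± 0.06 (adjusted *p* = 1.91e-07). The siRNAs differed by 0.41 ± 0.06 (adjusted *p* = 1.33e-06). *RACGAP1*, which has a processed pseudogene, was at 59.9% of control with si025 and 79.6% with si033. *PRC1*, which bundles the microtubules of the central spindle, was at 62.1% and 71.7%, and *ANLN*, which encodes the ring scaffold anillin, at 67.6% and 76.9%. *NUSAP1* and *DLGAP5*, whose products stabilise spindle microtubules, were at 63.3% and 59.3% with si025 and at 78.4% and 73.6% with si033. *CKAP2*, *CKAP5* and *ASPM*, which act on microtubules at centrosomes and spindle poles, were at 65.9%, 74.99% and 67.0% with si025 and at 68.6%, 74.2% and 72.4% with si033.

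The 7 genes of mitotic chromosome structure were all called lower with each siRNA. *MKI67*, the proliferation marker that coats mitotic chromosomes, was at 519, 546 and 520.2 CPM in control, 302, 245 and 268 CPM with si025, and 408, 416 and 411 CPM with si033. No groups overlapped, although the si025 libraries were the most spread. The log2 fold change of *MKI67* was -0.96 ± 0.05 (adjusted *p* = 4.6e-13) with si025 and -0.36 ± 0.05 (adjusted *p* = 4.31e-06) with si033. *TOP2A*, the topoisomerase that untangles sister chromatids, was at 1136, 1162 and 1185 CPM in control, 801, 769 and 818 CPM with si025, and 847, 903 and 894 CPM with si033. Its groups were apart but close between the siRNAs, which differed by -0.15 ± 0.04 (adjusted *p* = 0.00295). The log2 fold change of *TOP2A* with si025, -0.54 ± 0.04, was the smallest of the 7.

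Of the condensin genes, *SMC4* was the one not called between the siRNAs. SMC2 and SMC4 form the ATPase core of both condensins, and NCAPD2, NCAPG and NCAPH complete condensin I. *SMC4* was at 716, 714 and 754 CPM in control, 485, 476 and 496 CPM with si025, and 467, 477 and 501 CPM with si033. The knockdown groups overlapped and were both well under control. *SMC4* fell by 0.58 and 0.60 on the log2 scale, and the difference of 0.01 had a 95% interval from -0.07 to 0.10 (adjusted *p* = 0.838). *NCAPH* went from 110.4, 114 and 111 CPM in control to 77.4, 74.7 and 73.0 CPM with si025 and 91.7, 94.9 and 94.0 CPM with si033. Its groups did not overlap, and the siRNAs differed by -0.32 ± 0.05 (adjusted *p* = 3.39e-06). *NCAPD2*, *NCAPG* and *SMC2* were at 54.7%, 59.5% and 63.5% of control with si025 and at 69.1%, 69.7% and 76.3% with si033.

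Both transcription factors of the group were called lower with each siRNA. *FOXM1* was at 296, 304 and 298 CPM in control, 227, 222 and 213 CPM with si025, and 247, 239.5 and 244 CPM with si033. The groups were narrow and apart. *FOXM1* changed by -0.44 ± 0.04 on the log2 scale with si025 (adjusted *p* = 3.19e-09) and by -0.30 ± 0.04 (adjusted *p* = 1.93e-06). *MYBL2*, which encodes B-MYB, was at 154, 157 and 155 CPM in control, 94.0, 99.3 and 87.4 CPM with si025, and 128, 123 and 131 CPM with si033. It fell further with si025 (-0.73 ± 0.05, adjusted *p* = 1.47e-11) than with si033 (-0.29 ± 0.05, adjusted *p* = 3.35e-05), a difference of -0.45 ± 0.05 (adjusted *p* = 6.44e-08). Among genes with a promoter window, 30 tested genes held TTTGAA or TTCGAA at any position on either strand. Their median log2 fold change was -0.69 with si025 and -0.46 with si033. The 13 with neither word had medians of -0.73 and -0.32, and no test was made between them. No other form of the CHR was searched, so this split does not separate genes with and without the element.

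Compared directly, 48 of the 54 genes were called between the siRNAs, 46 lower and 2 higher with si025, whereas 60.9% of all tested genes were called and 29.7% were called lower. The median difference was -0.27, against 0.00 over all tested genes. The 2 genes higher with si025 were *ECT2* and *BUB3*. The si025 and si033 libraries overlapped in *ANLN*, *CKAP2*, *CKAP5*, *HMMR*, *ASPM*, *SMC4* and *SPC25*. How often such libraries overlap over all tested genes was not counted. Besides *HMMR* and *SMC4*, the genes not called were *CKAP5* at 0.01 (95% interval from -0.08 to 0.10), *CKAP2* at -0.06 (-0.16 to 0.04), *ASPM* at -0.11 (-0.23 to 0.00) and *CENPA* at -0.14 (-0.27 to -0.01). The difference of *CENPA* was called in 7 of 17 alternative analyses, with adjusted *p* from 0.0226 without si033 replicate 1 to 0.0498 with only the groups compared, and among them those without control replicate 1 (0.039), replicate 2 (0.0404) or replicate 3 (0.0474). That of *ASPM* was called without si025 replicate 1 (0.0378) or replicate 3 (0.0326) and with a replicate block (0.0498). The differences of *NUF2*, *BUB1*, *CENPE* and *ANLN* were called (adjusted *p* = 0.0269, 0.0149, 0.00906 and 0.0102) but lost in some analyses that left out a library. For *NUF2* these were the analyses without si025 replicate 1 (adjusted *p* = 0.126) or replicate 3 (0.0568) and without si033 replicate 2 (0.0695) or replicate 3 (0.0723). For *BUB1* they were those without si025 replicate 2 (0.0791) and without si033 replicate 3 (0.0758), for *CENPE* the same 2 (0.056 and 0.074), and for *ANLN* that without si025 replicate 2 (0.0981, with a difference of -0.10 against -0.19).

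**Figure D4:**
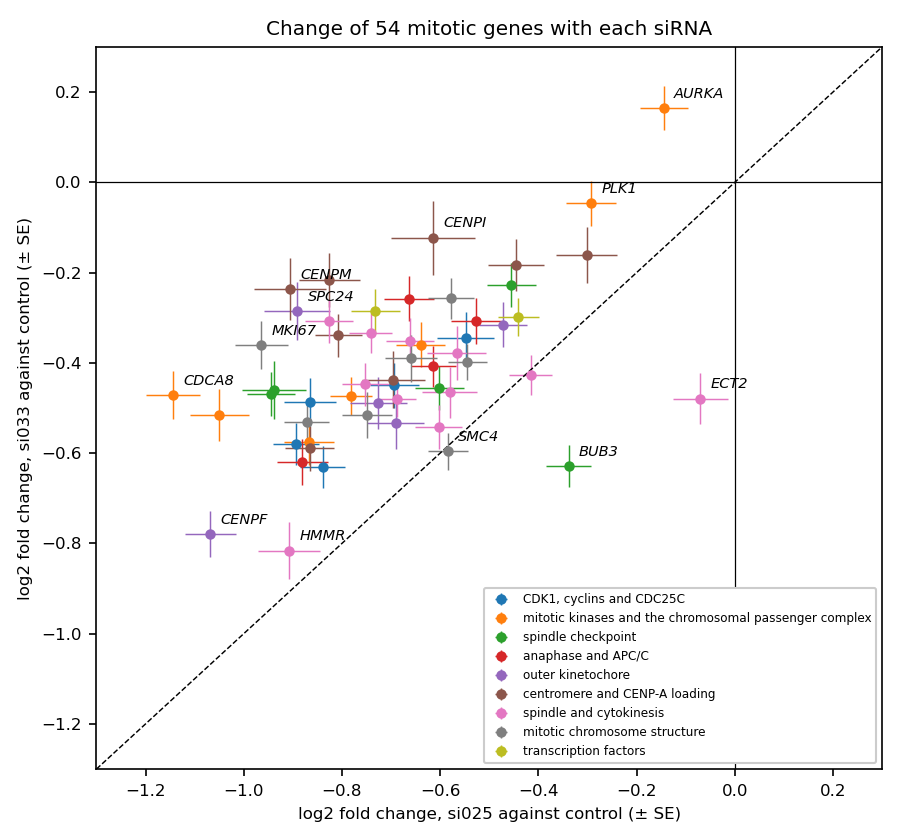
Log2 fold change with si033 (y axis) against that with si025 (x axis), each relative to the same control libraries, with SE bars, for the 54 tested mitotic genes coloured by functional group. Most points lie above the dashed diagonal of equal change, where the fall with si025 is the greater. *ECT2* and *BUB3* lie below it, *SMC4* and *CKAP5* lie just below it, and *AURKA* lies above 0 on the si033 axis alone.

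Per kilobase of exon, the control levels of the tested genes spanned from 197.6 CPM per kb for *TOP2A* to 4.02 CPM per kb for *CENPI*. After *TOP2A* came *CCNB1* at 150.2 ± 6.06 (SD, n = 3), *UBE2C* at 128.0 ± 6.15, *PRC1* at 123.3 ± 3.12 and *SMC4* at 118.8 ± 3.61 CPM per kb. The SD ranges of *UBE2C* and *PRC1* overlapped, as did those of *PRC1* and *SMC4*, so these neighbours were not apart beyond their spread. Above *CENPI*, the lowest were *CENPK* at 5.07 ± 0.23 and *SPC24* at 11.3 ± 0.47 CPM per kb.

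Other genes of mitosis, in 7 lists of 98 genes outside the 55, showed smaller changes. Of the 95 that could be tested, 73 were called lower and 6 higher with si025 (28.8% of all tested genes were called lower), with a median log2 fold change of -0.37, and 54 were called lower and 9 higher with si033 (27.8% of all tested genes lower), with a median of -0.17. All 12 genes of mitotic entry and exit control were lower with si025, from *WEE1*, the kinase that inhibits CDK1, at -0.89 to *CDC25B* at -0.25. With si033, *MASTL*, the Greatwall kinase that restrains the phosphatase opposing CDK1, was called higher (0.42 ± 0.06, adjusted *p* = 5.53e-06), whereas it was called lower with si025 (-0.33 ± 0.07, adjusted *p* = 0.000174). The 6 condensin II and cohesion-protecting genes were all called lower with each siRNA, and *SGO2*, which encodes a shugoshin that protects centromeric cohesin, was the lowest with si033 at -0.98 ± 0.06. Among 7 checkpoint proteins, *TRIP13*, the ATPase that remodels MAD2, was at -1.02 ± 0.06 with si025 (adjusted *p* = 4.69e-13) and was not called with si033 (-0.04 ± 0.05, adjusted *p* = 0.513). Of the 17 APC/C genes, 9 were called lower and 4 higher with si025 and 6 lower and 2 higher with si033. *ANAPC1*, the largest subunit of the complex, rose by 0.44 and 0.45, and *CDC26* was also called higher with each siRNA, at 0.23 and 0.22. *CENPW*, a histone-fold subunit of the inner kinetochore, was called higher with each siRNA too (0.31 and 0.60), as was *CLASP2*, a microtubule-stabilising protein (0.50 and 0.16). Of 25 other spindle genes, 21 were called lower and 1 higher with si025, and 15 lower and 3 higher with si033. Of 19 other kinetochore and centromere genes, 12 were called lower and 1 higher with si025, and 10 lower and 3 higher with si033. Of 9 MuvB and DREAM genes, 7 were called lower with si025 and 5 with si033, with no call in the other direction. These counts stand against 61.7% of all tested genes called with si025 and 54.8% with si033, in either direction.

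The other mitotic kinesins, motor proteins outside the 55, were called lower in all 11 tested cases with each siRNA. Their medians were -0.78 and -0.49, and *KIFC1*, at a control mean of 0.20 CPM, was too low to test. Of all tested genes, 28.8% were called lower with si025 and 27.8% with si033. *KIF15* was the lowest with si025 at -1.15 ± 0.05, and *KIF22*, which moved least with si025 at -0.24 ± 0.04, was the lowest with si033 at -0.81 ± 0.05. All 26 genes of replication licensing and replication forks, which act in S phase, were called lower with si025, from *MCM3* at -1.37 to *POLE* at -0.32, with a median of -0.79. With si033, 22 of the 26 were called lower, with a median of -0.35. Transcripts of S phase fell beside those of mitosis, and the cell cycle stage of the cells was not measured.

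**Figure D5:**
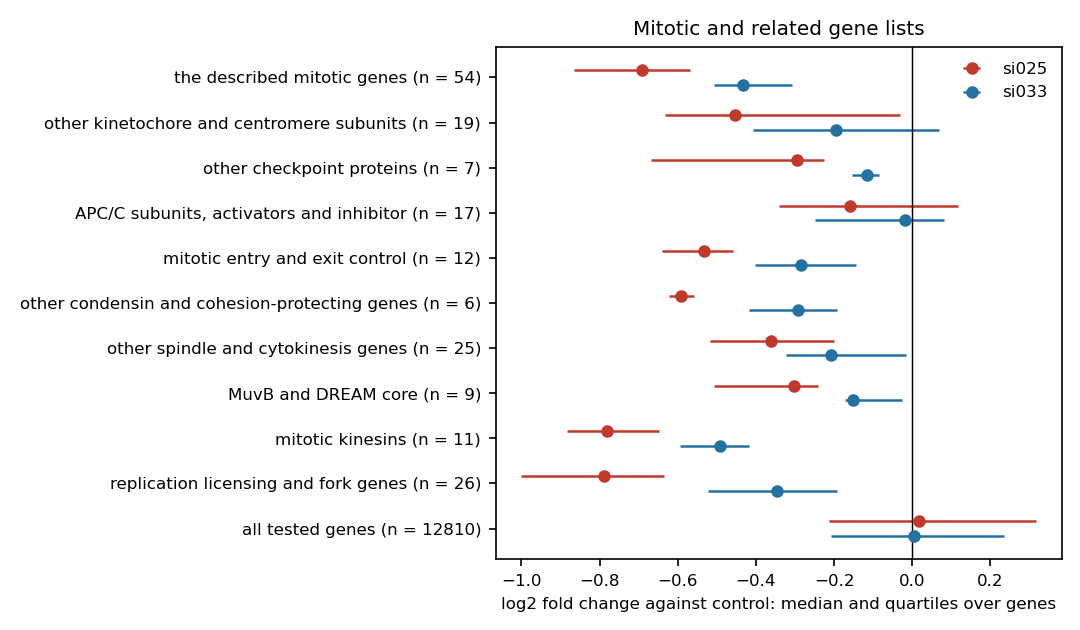
Median (point) and quartiles (bar) of the log2 fold change against control (x axis) with si025 and si033, for the mitotic genes, 9 related lists and all tested genes (y axis). With si025 the replication genes (-0.79) and kinesins (-0.78) lie lowest, the APC/C genes (-0.16) lie nearest to all tested genes (0.02), and in each list the si033 median is nearer to 0 than the si025 median.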

How the data were processed

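Per the labels, RNA was read as stranded total RNA libraries. The labels name a Promega extraction kit and the methods of the study a Qiagen kit. The authors aligned paired-end reads to hg38 with HISAT2 2.1.0 and deposited raw counts of read pairs per gene symbol, made with featureCounts 1.5.2 on the sense strand. The file headers name a RefSeq annotation and the methods GENCODE. Read pairs with several positions were left out by the default of that program, so near-identical copies are uncertain.

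The counts of all 9 libraries were fitted in edgeR 4.0.16 (TMM, default filter, quasi-likelihood test, no covariate) and *p* values were adjusted over 12810 genes by Benjamini-Hochberg. The biological coefficient of variation was 4.13%. Each library counted as 1 sample. Replicate pairs, scaled by library totals alone, differed by more than counting noise (chi-square per degree of freedom from 1.72 to 5.09). This does not show whether they came from separate cultures. Exon lengths came from the files. Promoter words were searched on both strands.

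The 55 genes and all lists were chosen with earlier results of these data known. In each functional group, values by library are given for genes with the lowest and highest change in each comparison and for genes not called or called higher. The alternatives were other normalisations, DESeq2 1.42.0, limma-voom (limma 3.58.1), no filter, fewer groups, a replicate block and leaving out each library. Of the marker genes for the label check, 2 are not reported here.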

Additional observations from a re-analysis of the deposited data

Results flagged for a closer look

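The response of *AURKA* differed between the siRNAs. All 3 si033 libraries lay above the control libraries. The si025 libraries lay below them, the highest at 115.3 CPM and the lowest control library at 115.4 CPM. The call with si025 was lost in the analyses named with the gene above. The difference between the siRNAs, -0.31 on the log2 scale, was called (edgeR, adjusted *p* = 7.75e-06), with every si025 library below every si033 library. The same test of the difference called 46 mitotic genes lower and 2 (*BUB3* and *ECT2*) higher with si025 than with si033. Of all tested genes, 60.9% were called in that comparison and 29.7% were called lower.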

How the results depend on the processing

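Each of the 54 tested genes was recomputed in 3 comparisons under 17 alternatives. Of these 2754 values, 2712 kept their direction and their side of the threshold, 24 lost a call, 11 gained a call and 7 changed sign without being called. The sign changes were *PLK1* with si033 at 0.0079 (library totals alone), *CKAP5* between the siRNAs at -0.0157 (without si025 replicate 1) and -0.0251 (without si033 replicate 1), and *SMC4* between the siRNAs at -0.0001 (RLE factors), -0.0005 (DESeq2), -0.0037 (without si025 replicate 3) and -0.0216 (without si033 replicate 1). Besides the losses given with the genes above, *CENPA* with si033 was lost with upper quartile factors (adjusted *p* = 0.0758), library totals alone (0.153) and DESeq2 (0.069), and *MIS18A* with library totals alone (0.0521). The causes were not tested. Leaving out 1 library at a time, the difference between the siRNAs ranged from -0.0251 to 0.0479 for *CKAP5* and from -0.0216 to 0.0401 for *SMC4*. Genes called lower numbered 52 to 53 with si025, 48 to 51 with si033 and 43 to 48 between the siRNAs. With library totals alone, 40.7% of all calls with si033 were lower, against 50.8% with TMM, and 49 mitotic genes were called lower. Same-numbered libraries did not deviate together (correlations from -0.0214 to 0.0729), so the numbers were not read as pairs. With a replicate block 53, 52 and 49 mitotic genes were called, the block adding *ASPM* (adjusted *p* = 0.0498). *SPC25*, at 0 to 10 counts, was too low to test, and intervals cover the spread between 3 libraries a group.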
